A study of Rattus norvegicus with 12 samples.

Results

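On the 12 one-colour arrays of rat brain RNA, 4 control probes carry the names of 2 glycolytic enzymes of the rat: Rat-GAPDH_3, Rat-GAPDH_5, Rat-PGK1_3 and Rat-PGK1_5. They were chosen as the control spots whose names begin with Rat-GAPDH or Rat-PGK1, out of 60216 probe names on the array, and no other gene carries a rat, mouse or human prefix there. Each is printed at 10 spots, so they fill 40 of the 62976 spots of an array. The ending 3 or 5 is part of the name and is read here as the end of the transcript to which the probe is directed. Both genes, Gapdh (gene ID 24383) and Pgk1 (gene ID 24644), are protein-coding in the RefSeq rat annotation. The sequence field of the 4 probes is empty in the files used here, whereas all 60148 probes that are not controls have a sequence.

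Glycolysis splits glucose into pyruvate and is the main entry of fuel into brain metabolism. GAPDH oxidises and phosphorylates a triose phosphate and passes the electrons to NAD+, and PGK1, phosphoglycerate kinase, moves that phosphate onto ADP in the next step, the first of the pathway to yield ATP. Both genes have been described as targets of the hypoxia-inducible factors, and both transcripts also serve as reference genes against which other transcripts are measured.

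The labels give 3 groups of 4 male rats' samples. The control group is labelled normal, with no day of sampling. The model group was taken 7 days after embolization of the middle cerebral artery, the vessel that supplies most of the lateral surface of a cerebral hemisphere, and the BHD group was taken 7 days after the same operation with Buyang Huanwu Decoction, a Chinese herbal preparation. The series design text instead applies the embolization to all groups, so an operation in the control group cannot be settled from the labels. The tissue is given as brain and, in most descriptions, as hippocampus. The rat strain, the age, the dose and the side of the brain are not given in the sources used here. Nothing ties a sample to 1 animal, and p-values therefore measure the spread between these samples, which may be technical. No probe that is not a control is paired with a gene in the files, so the labelled tissue could not be checked against markers of brain cells.

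Of the probes that are not controls, 73.2% to 77.3% per array were well above background. The control arrays lay in row 1 and the model arrays in row 2 of slide 1, and the BHD arrays in row 1 of slide 2, which was scanned apart. Group and row, for model against control, and group and slide, for BHD against either, cannot be told apart. In a principal component analysis, BHD replicate 2 stood apart from the other arrays, and the changes of the rat probes, the differences within arrays and the results on mouse and human probes are therefore also given without it. The number of arrays limits the precision of every value.

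None of the 4 rat probes passed a threshold of 0.05 on the adjusted p in any comparison. Each level below is the mean log2 processed signal of the probe's spots minus the array's 75th percentile over the probes that are not controls, so a difference of 1 is a doubling. The 4 probes were fitted with the 44719 probes that were well above background throughout 1 or more groups, with limma and Benjamini-Hochberg adjustment over all 44723. In that fit 0 of the 4 was called between model and control, where 0.0470% of all tested probes were called. Between BHD and model 0 of the 4 was called against 3.19% of all, and between BHD and control 0 of the 4 against 10.7%. Near the 3′ probes, among tested probes within 1 log2 unit of their mean level, 0 of 312 and 0 of 298 were called between BHD and model. Between BHD and control these were 1 of 312 and 1 of 298. Near Rat-GAPDH_5 and Rat-PGK1_5, 14 of 1928 and 76 of 6957 were called between BHD and model. Between BHD and control these were 117 of 1928 (6.07%) and 624 of 6957 (8.97%). Beside these shares, 0 of 4 does not set the rat probes apart from probes of like signal. At an unadjusted p under 0.05 from limma, only Rat-PGK1_5 between BHD and model passed, beside 17.6%, 17.1% and 28.0% of all tested probes in the same order of comparisons. The plot of levels by array shows all 48 values.

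**Figure D1:**
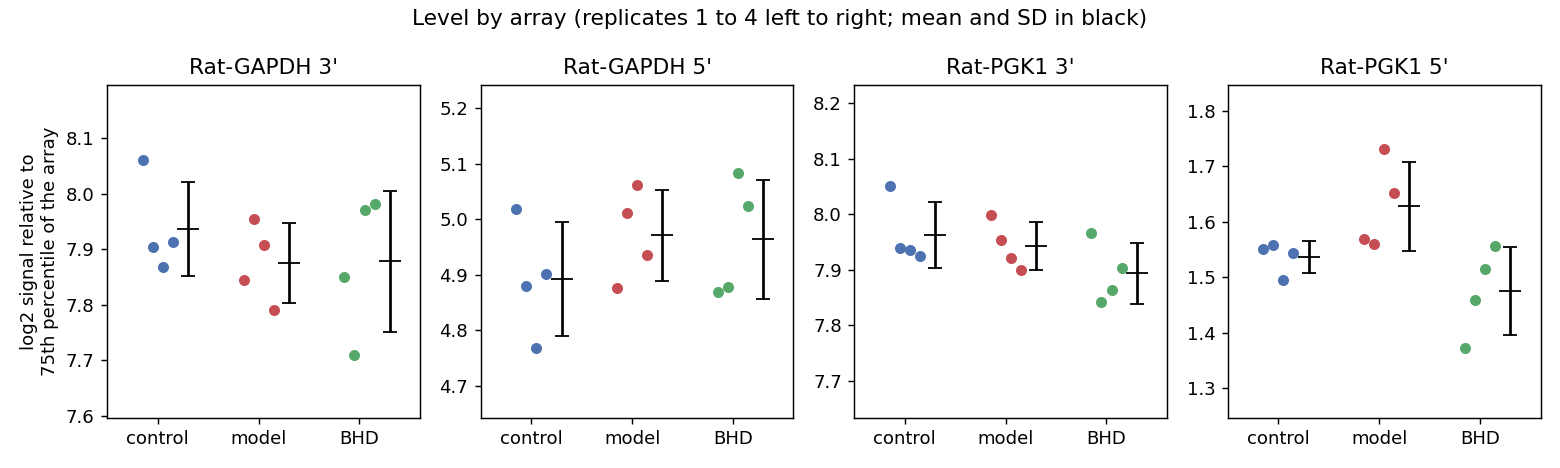
Log2 level relative to the array's 75th percentile (vertical axes, each panel with its own range) of the 4 rat probes in the control, model and BHD arrays. Points are arrays, bars are group means with their SD (n = 4); the groups overlap for 3 probes, and for Rat-PGK1_5 the model arrays start at 1.559, just above the highest control array at 1.558.

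The probe for the 3′ end of Gapdh, Rat-GAPDH_3, had levels of 8.06, 7.90, 7.87 and 7.91 in control replicates 1 to 4. The model arrays had 7.84, 7.96, 7.91 and 7.79, and the BHD arrays 7.85, 7.71, 7.97 and 7.98. The 3 groups overlapped, and the lowest and the highest BHD array were further apart than the group means. Model differed from control by -0.06 ± 0.08 (SE), a change of -4.20% with a 95% interval from -15.1% to 8.14% (limma, adjusted p = 0.718). BHD differed from model by 0.00, from -11.2% to 13.1% (limma, adjusted p = 0.990), and from control by -0.06 (limma, adjusted p = 0.676). Ordered by mean, control stood at 7.94 ± 0.08, BHD at 7.88 ± 0.13 and model at 7.87 ± 0.07 (SD, n = 4), and no neighbours in that order differed by more than their SD. In bulk RNA, fewer cells of a type and less RNA per cell cannot be told apart.

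The probe for the 5′ end of Gapdh, Rat-GAPDH_5, gave 5.02, 4.88, 4.77 and 4.90 in the control arrays. It gave 4.88, 5.01, 5.06 and 4.94 in the model arrays and 4.87, 4.88, 5.08 and 5.02 in the BHD arrays. Here the control group had the lowest mean, while for the 3′ probe it had the highest, and the ranges again overlapped. Model was above control by 0.08 ± 0.08 (SE), or 5.64% with a 95% interval from -6.42% to 19.2% (limma, adjusted p = 0.636). BHD differed from model by -0.01 (limma, adjusted p = 0.980) and from control by 0.07 (limma, adjusted p = 0.599).

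For Pgk1, the 3′ probe Rat-PGK1_3 gave 8.05, 7.94, 7.94 and 7.92 in the control arrays. The model arrays gave 7.999, 7.95, 7.92 and 7.90 and the BHD arrays 7.97, 7.84, 7.86 and 7.90. Of the 4 probes it had the smallest scatter within groups, with a residual SD of 0.05 on the log2 scale. Model differed from control by -0.02 ± 0.06 (SE), or -1.36% with a 95% interval from -10.1% to 8.18% (limma, adjusted p = 0.891). BHD differed from model by -0.05, from -11.9% to 5.95% (limma, adjusted p = 0.759), and from control by -0.07, from -13.1% to 4.51% (limma, adjusted p = 0.491). Control replicate 1, at 8.05, was the highest array, and without it the difference between model and control was 0.01.

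The 5′ probe Rat-PGK1_5 gave the least even picture. Its levels were 1.55, 1.56, 1.49 and 1.54 in the control arrays, 1.57, 1.56, 1.73 and 1.65 in the model arrays and 1.37, 1.46, 1.51 and 1.56 in the BHD arrays. The 4 model arrays were above all the others, but by a narrow margin. The lowest model array stood at 1.559, the highest control array at 1.558 and the highest BHD array at 1.556. That order depended on the processing. The lowest model and highest control array stood at 10.262 and 10.269 with quantile normalization and 10.229 and 10.279 with no scaling. They stood at 1.435 and 1.451 with normexp background correction, and 1.5507 and 1.5512 with medians over spots. BHD differed from model by -0.15 ± 0.07 (SE), a change of -10.0% with a 95% interval from -18.6% to -0.507%. That difference had an unadjusted p of 0.0411 and did not pass after adjustment (limma, adjusted p = 0.265). Model differed from control by 0.09 ± 0.07 (SE), from -3.68% to 17.8% (limma, adjusted p = 0.497), and BHD from control by -0.06 (limma, adjusted p = 0.585). The exact two-sided permutation test over arrays gave 0.0286, the smallest value that 4 against 4 arrays can give, both for model against control and for BHD against model. Both became 0.171 after Benjamini-Hochberg adjustment over 12 tests of levels, and both rest on the same 4 model arrays. No exact p could pass that adjustment unless many of the 12 tests had reached 0.0286 together. Among all tested probes, 6.11% had every model array above every control array, and 7.10% had every BHD array below every model array (5.64% and 2.93% in the opposite directions). The BHD and control arrays of Rat-PGK1_5 overlapped, as for the other 3 probes; of all tested probes 7.59% had every BHD array above every control array and 11.0% below. For the other 3 probes the same exact test gave p between 0.171 and 0.971 in all comparisons, and for Rat-PGK1_5 between BHD and control it gave 0.229.

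Without BHD replicate 2, BHD differed from model by 0.06 for Rat-GAPDH_3, 0.02 for Rat-GAPDH_5, -0.03 for Rat-PGK1_3 and -0.15 for Rat-PGK1_5. The adjusted p of these differences lay between 0.341 and 0.943 in limma. Against control the same 4 differences were 0.00, 0.10, -0.05 and -0.06. For Rat-GAPDH_3 the difference from control thus moved from -0.06 to 0.00 with that array left out, and 0 of the 4 probes was called.

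**Figure D2:**
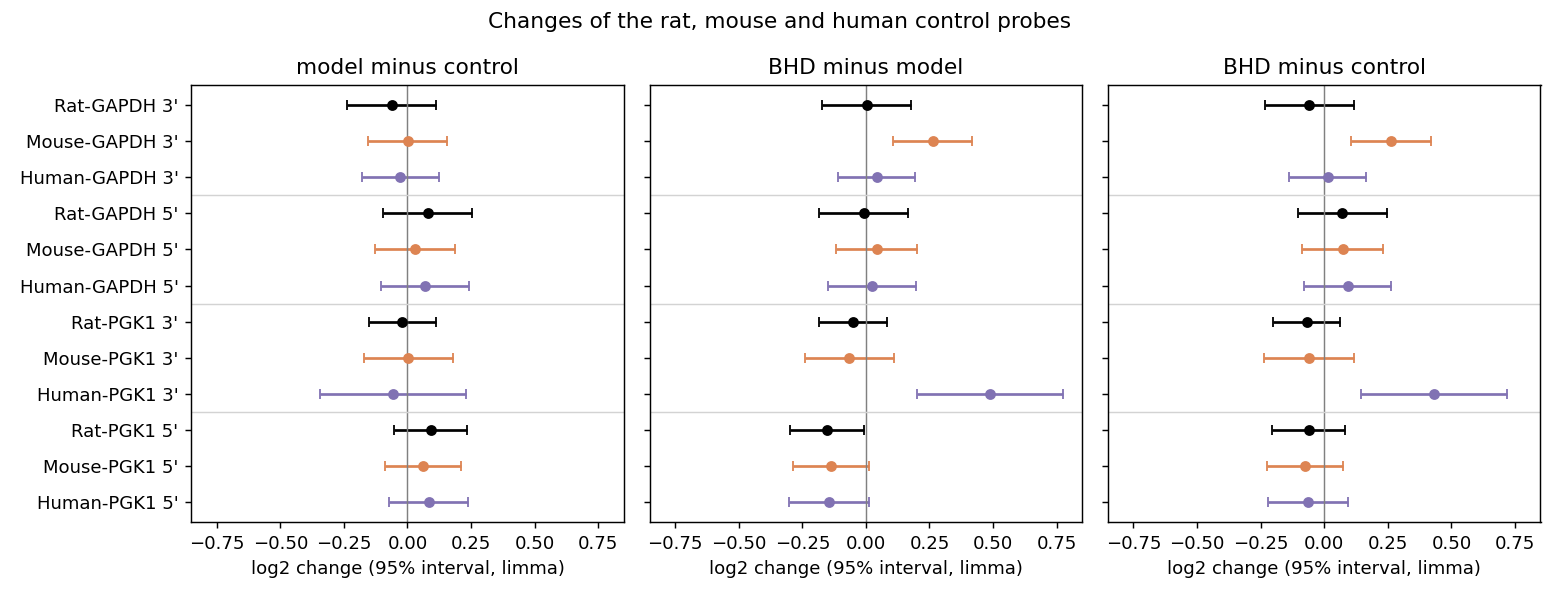
Log2 change (horizontal axes) of the 4 rat probes and of the mouse and human control probes for the same genes and ends, in the 3 comparisons, with points for the limma estimates and bars for their 95% intervals. Among the rat probes (black), only the interval of Rat-PGK1_5 for BHD minus model, around -0.15, leaves out 0, and the mouse and human probes that stand apart from them at 0.26 and 0.49 are Mouse-GAPDH_3 and Human-PGK1_3.

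With the 75th percentile as the scaling, the lowest interval bound over the 4 probes and 3 comparisons was -18.6% and the highest 19.2%. With the arrays centred on E1A control probes, described further on, the bounds reached -24.6% and 38.3%. Between model and control, 64.5% to 91.9% of all tested probes had a larger absolute change than a given one of the 4, between BHD and control 76.4% to 80.5%, and between BHD and model 42.6% (Rat-PGK1_5) to 98.4% (Rat-GAPDH_3). The median absolute change over all tested probes was 0.14, 0.12 and 0.17 on the log2 scale for model against control, BHD against model and BHD against control. Most tested probes are dimmer, and against tested probes within 1 log2 unit of each member the changes were ordinary in size. Of these, 52.6% to 82.9% had a larger change between model and control and 42.3% to 73.0% between BHD and control. Between BHD and model the share was 94.6% for Rat-GAPDH_3, 94.1% for Rat-GAPDH_5, 39.3% for Rat-PGK1_3 and 27.0% for Rat-PGK1_5. The change of Rat-PGK1_5 between BHD and model, -0.15, stood beside a median absolute change of 0.09 among its matched probes.

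The residual SD of each probe was set beside that of tested probes within 1 log2 unit of its mean level. The residual SD was 0.10 for Rat-GAPDH_3 and 0.10 for Rat-GAPDH_5, where the medians of the matched probes were 0.09 and 0.11. It was 0.05 for Rat-PGK1_3 and 0.07 for Rat-PGK1_5, beside 0.09 and 0.12. At least 99.6% of the matched probes are single spots, whereas each member is a mean of 10 spots, which lowers its SD. For single spots of the 4 probes, the median residual SD over the 10 positions was 0.10 for Rat-GAPDH_3, 0.10 for Rat-GAPDH_5, 0.07 for Rat-PGK1_3 and 0.07 for Rat-PGK1_5. On that like footing the single spots of both Pgk1 probes, at most 0.09 each, still lay below the median of their matched probes. These values describe single probes and carry no test.

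The spots of a probe repeat the measurement within an array. All 120 readings of each probe, 10 spots on 12 arrays, were well above background and 0 were saturated. Outlier flags removed 9 readings of Rat-GAPDH_3, 13 of Rat-GAPDH_5, 2 of Rat-PGK1_3 and 9 of Rat-PGK1_5. The median SD over the spots of an array was 0.03, 0.03, 0.05 and 0.03 on the log2 scale in that order, below the residual SD between arrays for each probe. For Rat-PGK1_3 the margin was narrow, and on model replicate 3 its SD over spots was 0.08. The processed signal of Rat-PGK1_5, as the mean of its 10 spots on an array, ran from 1119 to 1500 units over the arrays. Its median local background was 19 units. All 10 spot positions of Rat-PGK1_5 were lower in BHD than in model, by -0.20 to -0.12, and all 10 were higher in model than in control, by 0.05 to 0.11. The spots share their arrays, so that count is no further replication of the groups.

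Within an array, the difference between the 3′ and the 5′ probe of a gene is not moved by a scaling that shifts every probe alike, but it is by quantile normalization, which rescales bright and dim probes unequally. For Gapdh, 3′ minus 5′ was 3.04, 3.02, 3.10 and 3.01 in the control arrays, 2.97, 2.94, 2.85 and 2.86 in the model arrays, and 2.98, 2.83, 2.89 and 2.96 in the BHD arrays. The control arrays were above all 8 others. BHD was below control by -0.13, with an exact two-sided permutation p of 0.0286, the smallest possible here, and 0.0857 after Benjamini-Hochberg adjustment over 6 tests (2 genes, 3 comparisons). Model against control shares those control arrays and gave -0.14, with the same exact p of 0.0286 and adjusted 0.0857. Here too, none could pass the adjustment unless most of the 6 tests had reached 0.0286 together. Between BHD and model the difference was 0.01 (exact p = 0.771). The separation of BHD from control was lost with quantile normalization, where the highest BHD array stood at 2.994 and the lowest control array at 2.984, and in the deposited values, at 2.999 and 2.983; the differences were then -0.11 and -0.11, each with an exact permutation p of 0.0571. Without BHD replicate 2, BHD minus control was -0.10 and BHD minus model 0.04 (exact permutation p = 0.0286 and 0.400). The same difference was taken for the human and mouse GAPDH probes, described further on. From control, the human pair differed by -0.10 in model and -0.08 in BHD (exact permutation p = 0.0857 and 0.114). The mouse pair differed by -0.03 and 0.19 (exact permutation p = 0.257 and 0.0286), so in BHD its sign was opposite to the rat pair. Adjusted over 12 tests, these exact p became 0.206 and 0.229 for the human pair and 0.386 and 0.0857 for the mouse pair. How often other pairs of probes separate the groups was not computed.

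For Pgk1, 3′ minus 5′ was 6.50, 6.38, 6.44 and 6.38 in the control arrays, 6.43, 6.39, 6.19 and 6.25 in the model arrays, and 6.59, 6.38, 6.35 and 6.35 in the BHD arrays. The groups overlapped. Model differed from control by -0.11 (exact permutation p = 0.229), BHD from model by 0.10 (exact permutation p = 0.286) and BHD from control by -0.01 (exact permutation p = 0.914). Without BHD replicate 2 the BHD differences from model and control were 0.11 and 0.0035. The human PGK1 pair, described further on, was 0.63 above model and 0.49 above control in BHD. Both had an exact permutation p of 0.0286, and 0.0857 after adjustment over 12 tests. The mouse pair differed by 0.07 and 0.02 (exact permutation p = 0.171 and 0.857). Without BHD replicate 2 these were 0.64 and 0.50 for the human pair and 0.11 and 0.05 for the mouse pair. The 2 genes' differences were not tested against each other.

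The genes were next set against each other within each array, which again takes out a shift common to all probes. Only the change of this difference between groups is read here, since its size depends on the probes. At the 5′ end, GAPDH minus PGK1 was 3.47, 3.32, 3.27 and 3.36 in the control arrays, 3.31, 3.45, 3.33 and 3.28 in the model arrays, and 3.50, 3.42, 3.57 and 3.47 in the BHD arrays. BHD was above model by 0.14 and above control by 0.13. Each had an exact two-sided permutation p of 0.0571 and an adjusted p of 0.171 over 6 tests, under the same limit. Model and control differed by -0.01 (exact permutation p = 0.771). At the 3′ end the means were -0.03, -0.07 and -0.02 for control, model and BHD, and the exact permutation p was between 0.314 and 0.857 in the 3 comparisons. Without BHD replicate 2, BHD minus model and BHD minus control were 0.17 and 0.16 at the 5′ end (exact permutation p = 0.0571 for both) and 0.09 and 0.05 at the 3′ end.

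**Figure D3:**
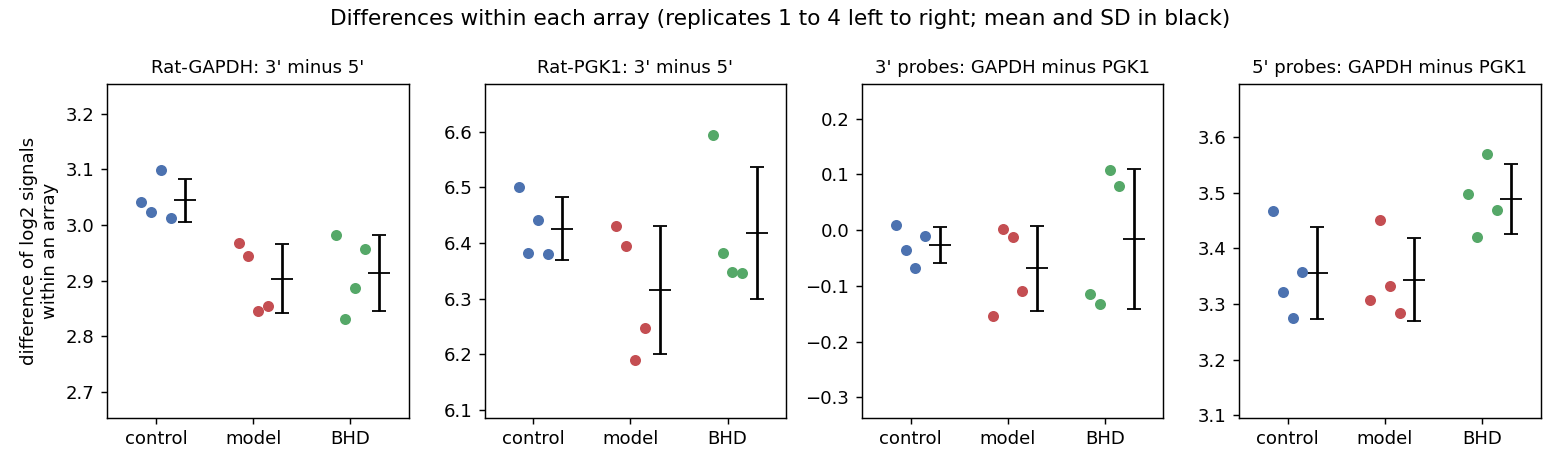
Differences within each array on the log2 scale: the 3′ minus the 5′ probe of Gapdh and of Pgk1, and GAPDH minus PGK1 at each end, for the control, model and BHD arrays (points, n = 4 a group, with group means). For Gapdh the control arrays lie at 3.01 to 3.10, above the 8 other arrays at 2.83 to 2.98.

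Over the 12 arrays the 2 Gapdh probes varied together, with a Pearson r of 0.60 over the arrays and 0.82 over the deviations from the group means. The 2 rat Pgk1 probes did not, with 0.01 and -0.40. The 2 rat probes at the 3′ ends had an r of 0.48 and those at the 5′ ends of 0.47. Among the mouse and human control probes, described further on, the mouse PGK1 pair had 0.61 and 0.59. The human PGK1 pair had -0.43 and 0.05. Over the arrays Rat-PGK1_3 had an r of 0.52 with Mouse-PGK1_3 and -0.27 with Human-PGK1_3. These correlations are descriptions over 12 arrays that share their groups and their scaling.

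The array also holds 8 control probes named for mouse and human GAPDH and PGK1, which were added to the fit after the data had been seen and which report whatever rat RNA binds them. At the 5′ end of Pgk1 they followed the rat probe: BHD minus model was -0.15 for the rat, -0.14 for the mouse and -0.15 for the human probe, and the 3 probes correlated at r = 0.96 to 0.97 over the arrays. At the 5′ end of Gapdh, the mouse and human probes minus the rat probe moved by 0.05 and 0.03 between BHD and model and by 0.00 and 0.02 between BHD and control. At the 3′ end of Gapdh, Human-GAPDH_3 ran with the rat probe (r = 0.87 over the arrays), and their difference moved by 0.04 and 0.07 in those comparisons, but Mouse-GAPDH_3 departed from both. The probe Mouse-GAPDH_3 read 6.77, 6.62, 6.61 and 6.68 in the control arrays, 6.61, 6.71, 6.72 and 6.63 in the model arrays, and 6.93, 6.79, 7.00 and 7.01 in the BHD arrays. All 4 BHD arrays were above the other 8, where 7.59% of all tested probes had every BHD array above every control array and 2.93% above every model array. It was 0.26 ± 0.07 (SE) above control in BHD (limma, adjusted p = 0.0389), a comparison in which 10.7% of all tested probes were called, and 0.26 above model (limma, adjusted p = 0.0743). Rat-GAPDH_3 differed by -0.06 and 0.00. Without BHD replicate 2, Mouse-GAPDH_3 was 0.31 above control and 0.31 above model (limma, adjusted p = 0.0174 and 0.0367).

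Mouse-GAPDH_3 minus Rat-GAPDH_3, taken within each array, was -0.92, -0.92, -0.97 and -0.98 in the BHD arrays. In the model arrays it was -1.23, -1.24, -1.19 and -1.16, and in the control arrays -1.29, -1.28, -1.26 and -1.24. BHD exceeded model by 0.26 and control by 0.32, both with an exact two-sided permutation p of 0.0286, the smallest possible, and 0.171 after adjustment over 24 tests. For Human-PGK1_3 minus Rat-PGK1_3, BHD was above model by 0.54 and above control by 0.50 at the same exact and adjusted p, whereas Mouse-PGK1_3 minus Rat-PGK1_3 differed by -0.01 and 0.01 (exact permutation p = 0.857 and 0.886). These 2 departures are the largest of the 8 differences between species computed. Without BHD replicate 2 they were 0.25 and 0.31 for Mouse-GAPDH_3 and 0.54 and 0.50 for Human-PGK1_3. The level of Human-PGK1_3 was then 0.51 above model and 0.45 above control (limma, adjusted p = 0.101 and 0.0677). For both departing probes the BHD arrays did not overlap those of the other groups. The margin was narrow for the level of Human-PGK1_3, with the lowest BHD array at 2.727 and the highest control array at 2.724. No exact p passed the adjustment over 24 tests, but none could have unless many tests had reached 0.0286 together. The level of Mouse-GAPDH_3 against control passed in limma, as given above. BHD and slide 2 cannot be told apart.

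**Figure D4:**
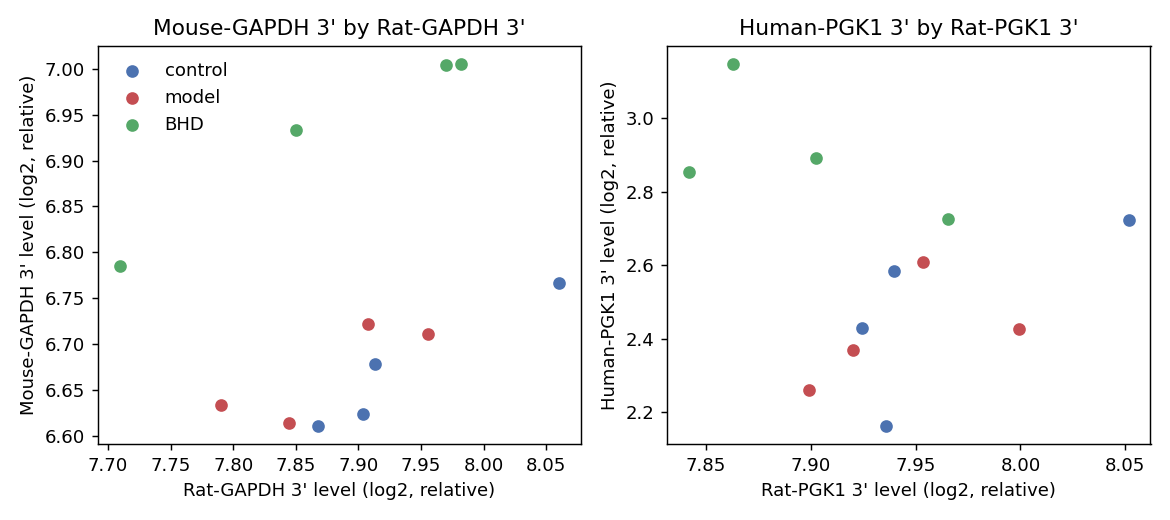
Log2 level, relative to the 75th percentile of the array, of Mouse-GAPDH_3 against Rat-GAPDH_3 and of Human-PGK1_3 against Rat-PGK1_3, with 1 point per array coloured by group (n = 4 a group). The BHD arrays lie above the other 8 on the vertical axis for both Mouse-GAPDH_3 (6.79 to 7.01) and Human-PGK1_3 (2.73 to 3.15), while on the horizontal axes the rat probes of the 3 groups overlap. For Human-PGK1_3 the lowest BHD array, at 2.727, is just above the highest control array, at 2.724.

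Each of the 44719 tested probes that are not controls was correlated with the rat probes over the arrays. With Rat-GAPDH_3 the highest Pearson r were 0.95 for rclstr_40205_661_13 and 0.93 for rclstr_62210_173_16, over 12 arrays. With Rat-PGK1_3 they were 0.89 for rclstr_29586_694_15 and 0.89 for rclstr_8274_3321_6, whose mean levels were -0.99 and -0.98. Over the deviations from the group means these r were 0.96, 0.94, 0.84 and 0.93. They are the highest of 44719 values each, and how many as high would arise by chance was not tested. The 5′ probe of Gapdh had more close companions, with 56 tested probes above an r of 0.9, where Rat-GAPDH_3 had 9, Rat-PGK1_3 had 0 and Rat-PGK1_5 had 9. The 2 highest for Rat-GAPDH_5, named after their values were seen, are shown because the 2 probes share a run of 23 bases, given in capitals; the rest is in lower case, 5′ to 3′ as in the files.
rclstr_52816_114_14: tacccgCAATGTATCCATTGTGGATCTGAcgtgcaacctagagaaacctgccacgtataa
rclstr_40738_703_16: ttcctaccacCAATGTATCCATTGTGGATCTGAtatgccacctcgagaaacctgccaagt
They correlated with Rat-GAPDH_5 at r = 0.98 and 0.98. Their differences between model and control were 0.10 and 0.09 on the log2 scale, beside 0.08 for Rat-GAPDH_5, and neither passed the test (limma, adjusted p = 0.565 and 0.579). No source used here gives either a gene, and whether they report the same RNA as Rat-GAPDH_5, or a related one, was not tested.

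A scaling to another set of control probes moved the levels of all probes. The scaling used 8 control probes named for E1A, a viral gene foreign to the rat whose RNA is used as a spike-in on Agilent arrays. Their mean level differed by -0.17 between model and control (exact permutation p = 0.0286). It differed by -0.10 between BHD and control and by 0.07 between BHD and model (exact permutation p = 0.0286 and 0.0857). With each array centred on those probes, the median change of all tested probes became 0.18 between model and control, -0.09 between BHD and model and 0.07 between BHD and control. The differences between model and control became 0.11 for Rat-GAPDH_3, 0.25 for Rat-GAPDH_5, 0.15 for Rat-PGK1_3 and 0.26 for Rat-PGK1_5. The lowest adjusted p among them was 0.0694, for Rat-PGK1_5 (limma). Relative to the median of all tested probes these were -0.06, 0.08, -0.02 and 0.09, as with the 75th percentile. Since this centring shifts every probe of an array alike, a sign turned where the change had been small, as for both 3′ probes between model and control. The part of the E1A difference between groups in these changes was not tested.

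**Figure D5:**
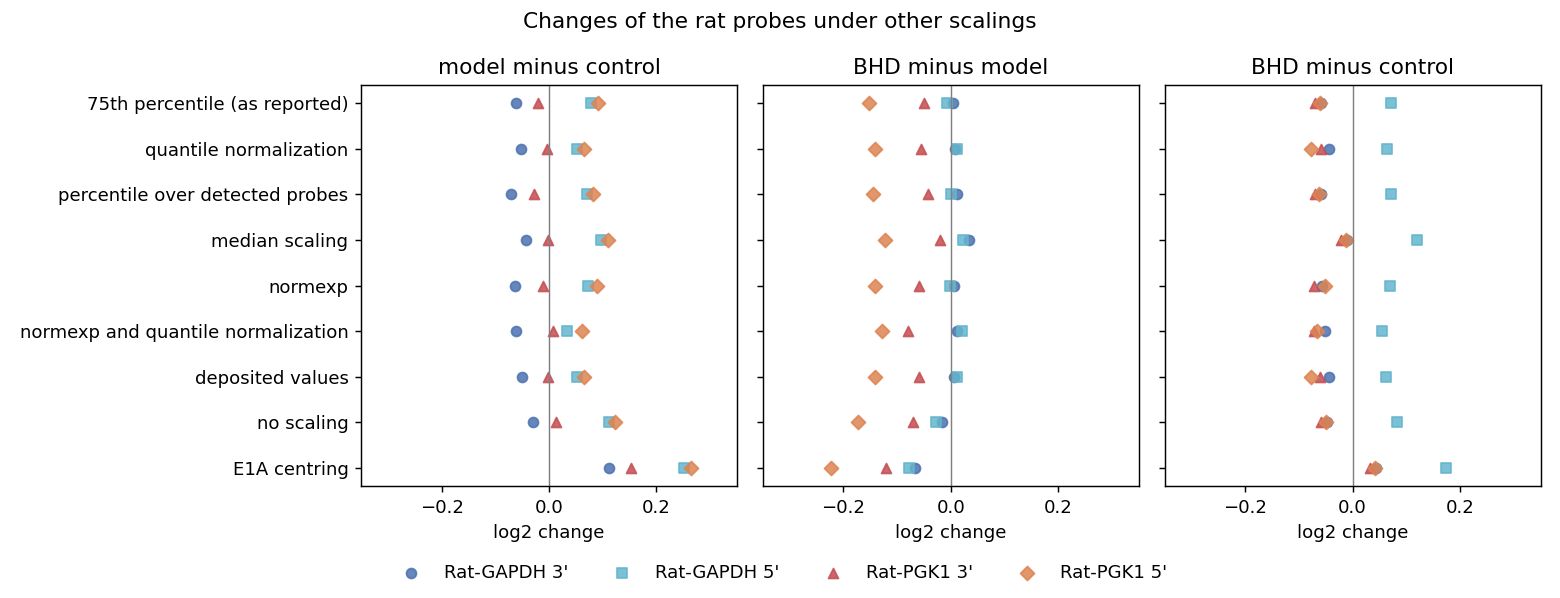
Log2 change of the 4 rat probes (horizontal axes) in the 3 comparisons under 9 scalings of the arrays (rows, the 75th percentile at the top). With E1A centring the model minus control values move to between 0.11 and 0.26, and Rat-PGK1_5 lies below 0 for BHD minus model in every row.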

How the data were processed

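Per the labels' protocols, Trizol-extracted RNA was copied into Cy3-labelled cDNA from a T16N2 primer. Scanner files from Agilent Feature Extraction 10.7.1.1, per the file headers, give the processed spot intensity on a linear scale, with background and spatial trends already removed, and the uncorrected mean and background intensity. The deposited value table holds log2 values of the same arrays and was used as an alternative. Flags per spot for background, outliers and saturation came from the same program, per the file headers.

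Groups were taken from the sample titles. Spots flagged as outliers were left out, the log2 of the processed signal was averaged over a probe's remaining spots, and the 75th percentile of the array was taken off. The test held the probes well above background throughout 1 or more groups. limma 3.58.1 in R 4.3.3 fitted 1 mean per group over all 12 arrays, with Benjamini-Hochberg adjustment over 44723 probes and calls at an adjusted p under 0.05. Differences within arrays were tested by exact permutation over arrays (all regroupings enumerated in Python 3.11.15). Scripts were tested on simulated data. The members, lists and tests were chosen with earlier results of these data known. All 4 member probes are named, with the 2 probes most like each 3′ probe. The other genes of glycolysis, the hypoxia genes and the cell type markers were not analysed here, because no probe is paired with a gene. Alternatives were quantile normalization, other scalings and background corrections (normexp, offset 50), other filters, spot summaries, variance models and thresholds, a replicate block and leaving out each array. The submitters' table, no scaling, the mouse and human probes (also without BHD replicate 2) and the SD of single spots were added after the data were seen.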

Additional observations from a re-analysis of the deposited data

Results flagged for a closer look

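In 24 groups of 4 arrays (4 levels, 2 differences between ends and 2 between genes, in each of 3 groups), 2 arrays stood far from the other 3 by Dixon's criterion, where chance gives about 1 group in 20. Control replicate 1 had a Rat-PGK1_3 level of 8.05, beside 7.92 to 7.94 in the other control arrays. BHD replicate 1 had a Pgk1 3′ minus 5′ difference of 6.59, beside 6.35 to 6.38 in the other BHD arrays.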

How the results depend on the processing

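None of the 4 rat probes was called in any of the 3 comparisons under any of 32 settings, and the lowest adjusted p was 0.0694. Among the values recomputed under alternatives other than leaving out an array, 319 stayed the same, 18 changed sign and 20 counts moved by over 1.5 times. Staying the same meant keeping direction and side of the threshold or, for counts of called probes, moving by at most 1.5 times. Other thresholds, filters, variance models, the block and fits of only the groups compared leave a probe's change as it was. Its direction could not turn there. With the block, differences within arrays were tested by sign flips, whose smallest p is 0.125, so none could pass. E1A centring turned the sign of Rat-GAPDH_3 (0.11 for model minus control, -0.067 for BHD minus model, 0.044 for BHD minus control), of Rat-PGK1_3 (0.15 for model minus control, 0.033 for BHD minus control) and of Rat-PGK1_5 (0.041 for BHD minus control). No scaling gave -0.017 for Rat-GAPDH_3 (BHD minus model) and 0.012 for Rat-PGK1_3 (model minus control), and normexp with quantile normalization gave 0.0082 for the latter. For Rat-GAPDH_5, BHD minus model became 0.012 with quantile normalization, 0.00038 with the percentile over detected probes, 0.023 with median scaling, 0.022 with normexp and quantile normalization and 0.012 in the deposited values. The Gapdh difference between ends, BHD minus model, became -0.0038 with quantile normalization and -0.0050 in the deposited values, and that of Pgk1, BHD minus control, 0.017 and 0.017. None of these values was past a threshold, and the cause was not tested. For Rat-PGK1_5 the model arrays stayed above control with E1A centring (-3.138 and -3.241) and outlier spots kept (1.559 and 1.552). The highest BHD array was above the lowest model array with normexp (1.436), no scaling (10.238) and E1A centring (-3.1374 against -3.1376). It stayed below with quantile normalization (10.230) and outlier spots kept (1.556).

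The count of called probes between model and control, 21, became 4 and 281 at thresholds of 0.01 and 0.1, 51 with quantile normalization, 42 with median scaling, 2242 with E1A centring (2138 higher, 104 lower), 53 with normexp, 231 with normexp and quantile normalization, 45 with medians over spots, 51 in the deposited values, 48 with limma-trend, 56 with its robust form, 10 with no filter and 35 with only probes well above background on all arrays. Between BHD and model, 1428 became 325 and 2646 at the same thresholds, 874 with only the groups compared and 940 with no filter. Between BHD and control, 4805 became 1032 and 8222. With the replicate number as a block the counts were 12, 1019 and 3473 and no rat probe was called. Same-numbered arrays correlated between -0.19 and 0.24 and 5 of 24 matched their own number best, so no pairing by number was seen. So few arrays cannot exclude one. The replicate numbers also give the column on the slide.

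Leaving out each array in turn gave 3 to 107, 699 to 1491 and 2397 to 5881 calls for model against control, BHD against model and BHD against control, and no rat probe was called. The lowest counts came without model replicate 2, BHD replicate 1 and control replicate 3. For model against control the highest came without model replicate 1, and the count was 57 without BHD replicate 2. In that order the changes ran from -0.089 to -0.021, -0.031 to 0.060 and -0.093 to -0.0023 for Rat-GAPDH_3, from 0.038 to 0.12, -0.047 to 0.024 and 0.030 to 0.11 for Rat-GAPDH_5, from -0.039 to 0.0098, -0.074 to -0.031 and -0.094 to -0.040 for Rat-PGK1_3, and from 0.057 to 0.11, -0.18 to -0.12 and -0.088 to -0.027 for Rat-PGK1_5. The difference between ends ran from -0.16 to -0.12, -0.012 to 0.039 and -0.15 to -0.10 for Gapdh and from -0.15 to -0.069, 0.044 to 0.14 and -0.067 to 0.017 for Pgk1. GAPDH minus PGK1 ran from -0.066 to -0.013, 0.012 to 0.092 and -0.030 to 0.050 at the 3′ end and from -0.048 to 0.026, 0.12 to 0.18 and 0.11 to 0.17 at the 5′ end. The lists of other named genes were not run.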
